A study of Rattus norvegicus with 6 samples.

Results

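The miR-21 hairpin gives rise to a pair of mature miRNAs, rno-miR-21-5p from its 5′ arm and rno-miR-21-3p from its 3′ arm. Both were taken by name from the deposited table of small RNA read counts, so the 2 members stand among 734 mature miRNA rows. The small RNA libraries came from sertoli cells in primary culture, which nurse the germ cells of the seminiferous tubule and were enriched by enzyme digestion from the testes of 5 to 10-day-old Sprague-Dawley rats, so other testis cells may have been carried along. The 6 libraries comprised 3 controls and 3 samples given 0.5 mM 4-nonylphenol (4-NP), an alkylphenol with estrogen-like action, all at 24 h. The controls received no 4-NP, and the dose, the strain and the age come from the text of the study, not from the sample labels. Neither labels nor methods say whether the 3 samples of a group were separate cultures or animals, so each p below measures only the spread between these samples.

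A miRNA hairpin is cut by Drosha in the nucleus and by Dicer in the cytoplasm into a short duplex of its arms. An Argonaute protein then keeps one strand, the guide, and the other strand, the passenger, is mostly degraded. In miR-21 the guide is the 5p arm. miR-21-5p is a widely expressed miRNA, inducible by AP-1 and STAT3, whose known targets include the mRNA of the translation inhibitor PDCD4.

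In RefSeq (build GRCr8) the Mir21 hairpin of 92 nt lies at chr10:71902600-71902691 on the minus strand. No other annotated gene overlaps it there, and its neighbours are Vmp1 and Tubd1. The build behind the deposited counts is not given in the sources used here. The mature arms are shown with their seed, bases 2 to 8, in capitals, because the seed sets which mRNAs an arm can pair with. The hairpin is shown with both arms in capitals.
miR-21-5p: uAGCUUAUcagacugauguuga
miR-21-3p: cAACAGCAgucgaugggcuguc
Mir21 hairpin: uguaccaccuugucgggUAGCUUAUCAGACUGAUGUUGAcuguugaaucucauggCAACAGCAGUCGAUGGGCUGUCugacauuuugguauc

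Both arms were 22 nt long, at bases 18 to 39 and 56 to 77 of the hairpin with 16 bases between them. The seeds of the arms differed, and none of the other names among the 693 mature rat miRNAs in the RefSeq table shared either of them. By seed, each arm therefore stood alone among the known miRNAs of that table. Only 606 of the 673 known mature names counted here have a sequence there, so the seeds of the rest were not compared. The guide begins with U and the passenger with C.

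The libraries held 20023200 to 23426742 reads on mature miRNAs, which was 81.9 to 85.2% of all counted reads. miR-21-5p ranked first in every sample. It had 14533319, 14380765 and 14170834 reads in control samples 1, 2 and 3. It had 14131830, 12743459 and 13818396 reads in 4-NP samples 1, 2 and 3. It therefore outnumbered the next miRNA, miR-143-3p, by 4.63 to 5.29 times in the controls and by 6.72 to 7.36 times after 4-NP.

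As a share of mature miRNA reads, miR-21-5p took 62.0, 62.3 and 63.6% in the controls and 63.9, 63.6 and 63.1% after 4-NP. Control sample 3 lay inside the range of the treated samples, so the groups overlapped. The mean share was 62.6% ± 0.827 in the controls and 63.5% ± 0.384 after 4-NP (SD, n = 3 each), a difference of 0.914 percentage points. In the two-sided exact permutation test of 3 against 3 samples the p was 0.2, where 0.1 is the smallest that the design allows. The 95% Wilson interval of a single share was 0.0393 to 0.0421 percentage points wide, which covers counting error only and is far less than the spread between replicates. For each read on any other mature miRNA there were 1.63 to 1.77 reads of miR-21-5p. Its share of the reads on all named small RNAs (mature miRNAs and the other classes, without the genomic categories) was 54.4 to 55.6% in the controls and 55.6 to 56.6% after 4-NP, groups that did not overlap, by a narrow margin (difference 0.991 points, two-sided exact permutation p = 0.1). Such separation was common: on the scaled levels described below, 43.4% of the 549 tested mature miRNAs had groups that did not overlap. That rate was not computed for shares. Without control sample 3 the difference in share of mature reads was 1.39 points, and without any other single sample it was 0.621 to 1.13 points.

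**Figure D1:**
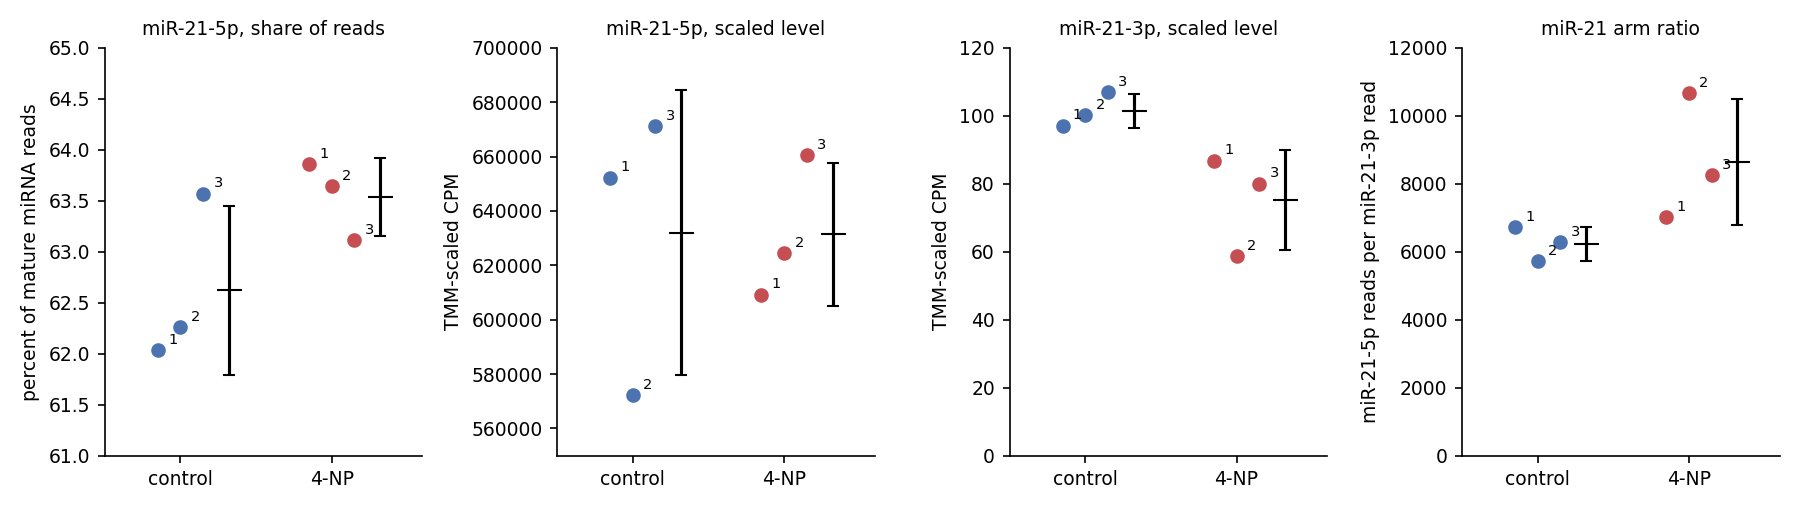
Values of both miR-21 arms in the 3 control and 3 4-NP samples (numbered points), with group means and SD (black). From left to right the y axes are the share of mature miRNA reads in percent, CPM of miR-21-5p, CPM of miR-21-3p and reads of miR-21-5p per read of miR-21-3p. The first pair of axes does not start at 0. The groups overlap for miR-21-5p and lie apart for miR-21-3p and the arm ratio, where 4-NP sample 2 is farthest from the controls.

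To compare levels, each library was scaled with a TMM factor, derived from the bulk of its miRNAs, and levels are given as CPM, reads relative to that scaled library size. The level of miR-21-5p was 652286, 572365 and 671261 CPM in controls 1, 2 and 3 and 609253, 624513 and 660443 CPM in 4-NP samples 1, 2 and 3. The lowest and the highest of the 6 values were both controls. Means were 631971 ± 52485 and 631403 ± 26282 CPM (SD, n = 3 each). edgeR's quasi-likelihood F test, fitted on 549 mature miRNAs, gave a log2 fold change of -0.0013 with a 95% interval of -0.16 to 0.16 and a Benjamini-Hochberg adjusted p of 0.991. Of those 549 miRNAs, 111 or 20.2% were called at an adjusted p under 0.05, and miR-21-5p was not among them. Across scalings the estimate took either sign, from -0.12 to 0.078, so no direction is given for miR-21-5p.

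The spread of miR-21-5p between replicates was wider after scaling than as a share. Within the controls the coefficient of variation of miR-21-5p was 1.32% as a share of mature reads and 8.30% as TMM-scaled CPM. After 4-NP it was 0.604% as a share and 4.16% as CPM. The share of a miRNA that makes up most of the reads moves less than its level does. These values therefore do not measure the same spread, and the small spread of the share does not show a steady level. Control 2, with the lowest CPM, had a TMM factor of 1.09, the highest of the 6, while the others had factors of 0.947 to 1.05.

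miR-21-3p was a rare product of the same hairpin. It had 2163, 2516 and 2258 reads in control samples 1, 2 and 3 and 2013, 1196 and 1675 in 4-NP samples 1, 2 and 3. Scaled, controls 1, 2 and 3 reached 97.1, 100.1 and 107.0 CPM, against 86.8, 58.6 and 80.1 CPM in 4-NP samples 1, 2 and 3. Every treated sample lay below every control, with 4-NP sample 2 lowest and 4-NP sample 1 close to the controls. This kind of separation, in either direction, was common, since 43.4% of the 549 tested miRNAs had groups that did not overlap. By level it ranked 134 to 163 among the mature miRNAs of a sample.

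The mean of miR-21-3p went from 101 ± 5.06 CPM (controls) to 75.2 ± 14.7 CPM (4-NP, SD, n = 3 each). This was a log2 change of -0.43 with a 95% interval of -0.86 to -0.0076 and a standard error of 0.18. edgeR's quasi-likelihood test gave it an unadjusted p of 0.0471 and an adjusted p of 0.134. It was therefore not called. Counting error alone would give a coefficient of variation of 1.99 to 2.89%, less than the 19.6% seen between the treated samples. Without 4-NP sample 2 the log2 fold change was -0.20 (adjusted p = 0.368 in edgeR). As a share of all mature reads, miR-21-3p was 0.00923 to 0.0109% in the controls and 0.00597 to 0.00910% after 4-NP. These groups did not overlap, by a narrow margin (two-sided exact permutation p = 0.1, the smallest possible). As a share of mature reads that leaves out miR-21-5p, it was 0.0243 to 0.0289% in the controls and 0.0164 to 0.0252% after 4-NP. On that denominator the groups overlapped (two-sided exact permutation p = 0.2).

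The arms of miR-21 were among the most unequal of the tested hairpins, a rank that also depends on how abundant the major arm was. There were 6719, 5716 and 6276 reads of miR-21-5p per read of miR-21-3p in control samples 1, 2 and 3. The ratio was 7020, 10655 and 8250 in 4-NP samples 1, 2 and 3. All treated samples were above all controls, with 4-NP sample 1 near the highest control and 4-NP sample 2 apart. The groups did not overlap in 31.4% of the 156 hairpins whose arms both had enough reads. Since both counts come from one library, this ratio needs no scaling.

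The mean ratio was 6237 ± 503 in the controls and 8642 ± 1849 after 4-NP (SD, n = 3 each). On the log2 scale the difference was 0.45 (standard error 0.21, 95% interval -0.07 to 0.98). limma, fitted on the log2 arm ratios of all 156 hairpins, gave an adjusted p of 0.264. The two-sided exact permutation p was 0.1, the smallest possible. Of the 156 hairpins, 5.77% were called at an adjusted p under 0.05, and miR-21 was not one of them. Without 4-NP sample 2 the log2 difference was 0.29 (adjusted p = 0.514 in limma), and without 4-NP sample 1 it was 0.59 (adjusted p = 0.225). The median log2 difference over the 156 hairpins was 0.05, and by signed difference miR-21 ranked 37.

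**Figure D2:**
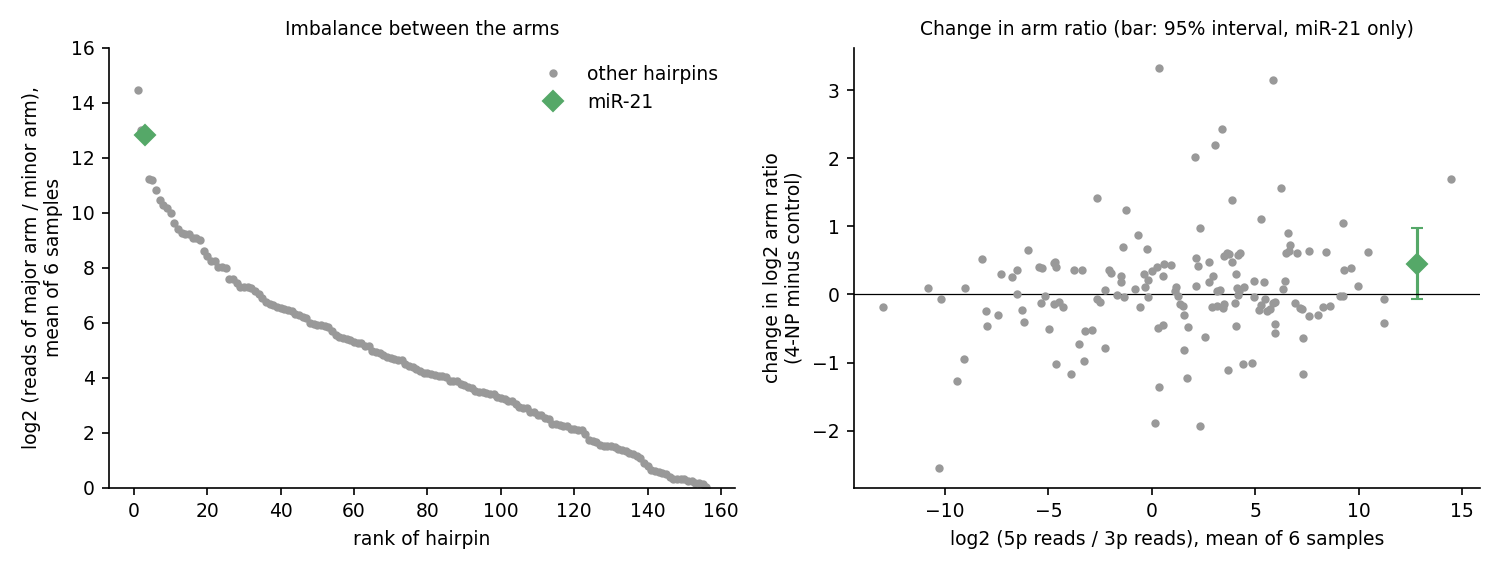
Left, log2 ratio of the reads of the major to the minor arm for each of 156 hairpins (y axis, mean of 6 samples) in descending order (x axis). Right, change in log2 arm ratio (4-NP minus control) against the log2 ratio of 5p to 3p reads, with the 95% interval for miR-21. miR-21 (green) ranks 3 in imbalance, and its interval of -0.07 to 0.98 includes 0.

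Averaged over the 6 samples, the log2 ratio of the major to the minor arm was 12.83 for miR-21, against a median of 4.22 over the 156 hairpins. Only miR-26a (14.47) and miR-143 (13.02, in favour of its 3p arm) were more unequal. miR-26a-3p had only 3 to 23 reads per sample, so the first place of that hairpin rests on few reads. These ranks leave out hairpins with too few reads on an arm, as 246 hairpins had both arms named in the table. Since the minor arm also needed enough reads, a ratio as high as that of miR-21 required a very abundant major arm. The major arm of miR-10a had 30696 to 44693 reads and its minor arm 9 to 22, while the major arm of miR-21 had 12743459 reads or more. The rank of miR-21 therefore reflects abundance too, and the part of abundance in it was not tested. The hairpins nearest to miR-21 by mean log2 arm ratio were miR-34a at 11.23, miR-10a at 11.21 and miR-26a at 14.47. The change in log2 arm ratio was -0.42 for miR-34a and -0.07 for miR-10a (adjusted p of 0.237 and 0.962 in limma), and 1.69 for miR-26a (adjusted p = 0.224). None of these hairpins was called, where only 5.77% of all 156 hairpins were.

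Argonaute proteins favour guides that begin with U, as miR-21-5p does. Both sequences were found in RefSeq for 136 of the 156 hairpins. The arm with more reads began with U in 52.9% of these, and the arm with fewer reads in 22.1%. A major arm with U and a minor arm with C, as in miR-21, were found in 22 of them, or 16.2%.

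Reads on the miR-21 hairpin were also counted outside the mature rows. The table has a row for the mir-21 precursor family in the Rfam database, with 1904685, 2211634 and 2221131 reads in control samples 1, 2 and 3. In 4-NP samples 1, 2 and 3 this row had 2034401, 1548340 and 1372797 reads. It held 68.7 to 75.4% of the reads of all 177 precursor families in each sample. Only RNA of 18 to 30 nt was sequenced, so these were reads of short RNA and not of the whole 92 nt hairpin. The sources used here do not say which bases of the hairpin these reads cover, or whether a read can also be counted in a mature row.

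For every 100 reads of miR-21-5p there were 13.1, 15.4 and 15.7 reads on the precursor family in the controls and 14.4, 12.2 and 9.93 after 4-NP. The groups overlapped, because control sample 1 lay below 4-NP sample 1 (means 14.7 ± 1.41 and 12.2 ± 2.23, SD, n = 3 each, two-sided exact permutation p = 0.2). On the scaling of the mature miRNAs the log2 change of this row was -0.28 (95% interval -0.60 to 0.03), and edgeR's fit of 1286 rows gave an adjusted p of 0.172. Of those rows, 21.5% were called. The call depended on the scaling. With TMM factors from all named small RNAs the log2 fold change was -0.47 (adjusted p = 0.0307 in edgeR), and with DESeq2 it was -0.46 (adjusted p = 0.0249). On the scaling of the mature miRNAs, the median log2 fold change of the small RNAs other than mature miRNAs was 0.46.

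The ratio of short reads on the precursor family row to mature reads was not particular to miR-21. Pooled over the samples, the family row held 13.5% as many reads as the mature miR-21 arms. Over the 39 families that had a row of the same name and at least 60000 reads in all, the median was 7.25% and the highest value was 51.4%, for mir-214. miR-21 ranked 13. Provided that no read was counted in more than 1 row, the miR-21 rows together took 62.3 to 64.3% of the reads on named small RNAs in the controls and 62.2 to 63.6% after 4-NP, ranges that overlapped (two-sided exact permutation p = 0.6).

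**Figure D3:**
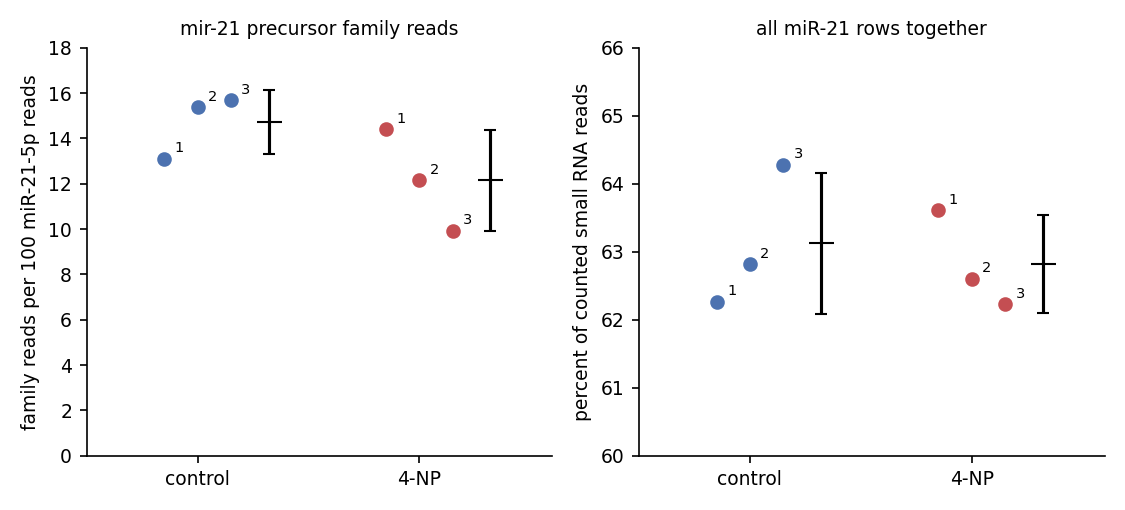
Reads of the mir-21 precursor family per 100 reads of miR-21-5p (left y axis) and all miR-21 rows together as a percent of reads on named small RNAs (right y axis, which does not start at 0), for the 3 control and 3 4-NP samples (numbered points) with group means and SD. The left values run from 9.93 in 4-NP sample 3 to 15.7 in control sample 3, and the groups overlap in both panels.

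Because 1 miRNA made up most of each library, the effect of leaving it out of the library size was measured on the 548 other tested miRNAs. The reads on the other mature miRNAs were 8121058 to 8893423 in the controls and 7279741 to 8077057 after 4-NP. Scaled to the total of all mature reads, the median log2 fold change of the 548 was 0.01. Scaled to the reads without miR-21-5p it was 0.05, a shift of -0.035 (total with miR-21-5p minus total without it). Without control sample 3 the shift was -0.055, and without any other single sample it was -0.045 to -0.028. With miR-21-5p in the total, 114 of the 548 were called at an adjusted p under 0.05 in edgeR, and without it 118, of which 113 were called both times.

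With TMM factors the median of the 548 moved from -0.02 to 0.05 when miR-21-5p was left out, a larger shift of -0.064. Calls went from 111 to 121, with 108 in both. edgeR picks a reference sample for TMM by itself, and it picked 4-NP sample 1 with miR-21-5p and control sample 2 without it. When the reference sample was held fixed, the median fell by only 0.00052 to 0.017 on leaving out miR-21-5p, for each of the 6 samples as the reference. The choice of reference alone moved the median over a wider range, from -0.03 with control sample 3 to 0.06 with control sample 2. With RLE factors (the median ratio to the average sample) the shift was -0.0016, and with upper-quartile factors it was 0.00049.

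**Figure D4:**
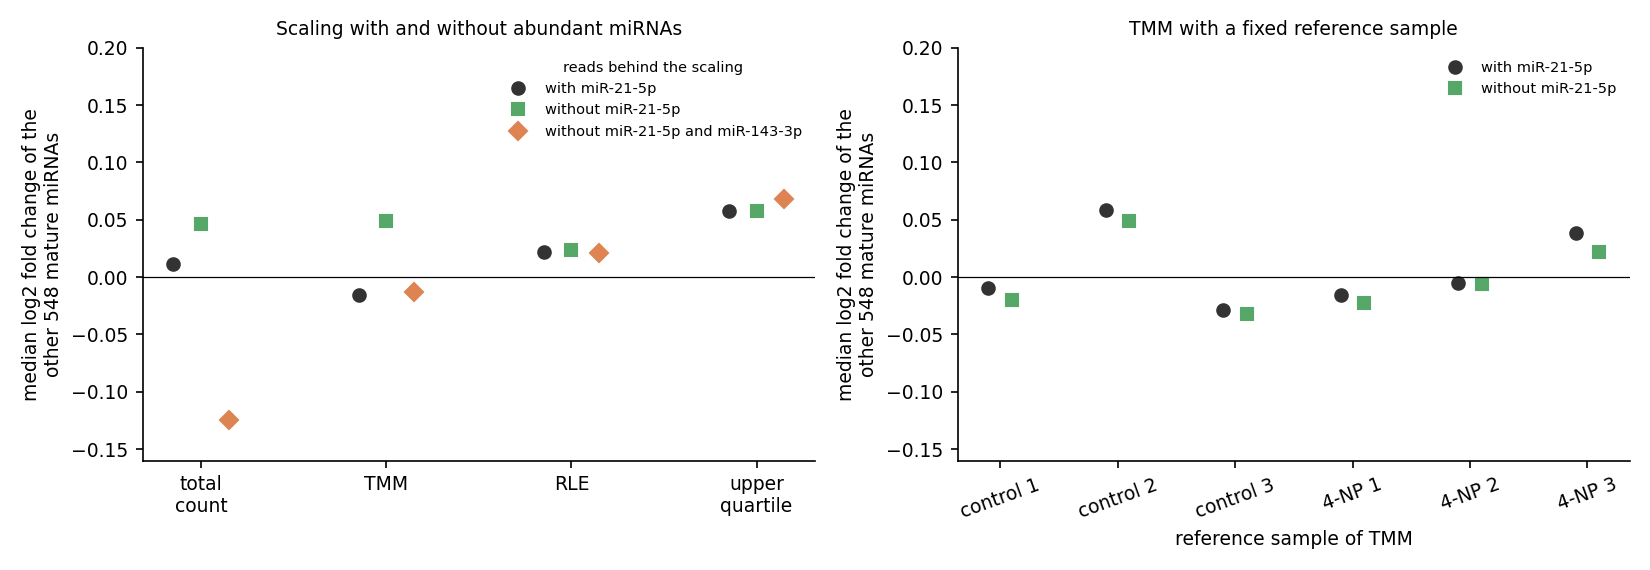
Median log2 fold change (4-NP against control) of the 548 other tested miRNAs (y axes). Left, by scaling method, with all mature reads (black), without miR-21-5p (green) and without miR-21-5p and miR-143-3p (orange). Right, for TMM with each sample fixed as reference (x axis), where the black and green points of a reference differ by at most 0.017.

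For miR-143-3p, the second most abundant miRNA, the controls gave 3135587, 2722455 and 2679272 reads and the 4-NP samples gave 1919332, 1897014 and 1901906. As a share of mature reads it went from a mean of 12.4% to one of 8.94%. Scaled, it fell by 0.50 on the log2 scale (edgeR, adjusted p = 0.0177). When it was left out of the total together with miR-21-5p, a step chosen after the values were seen, the median of the 548 under total count scaling was -0.12. That is a shift of 0.14 against the total of all mature reads, opposite in sign to that of miR-21-5p alone under the same scaling. With both left out, the shift was -0.0022 with TMM, 0.00070 with RLE and -0.010 with upper-quartile factors, so the size of 0.14 was seen with total count scaling only among these 4 methods.

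**Figure D5:**
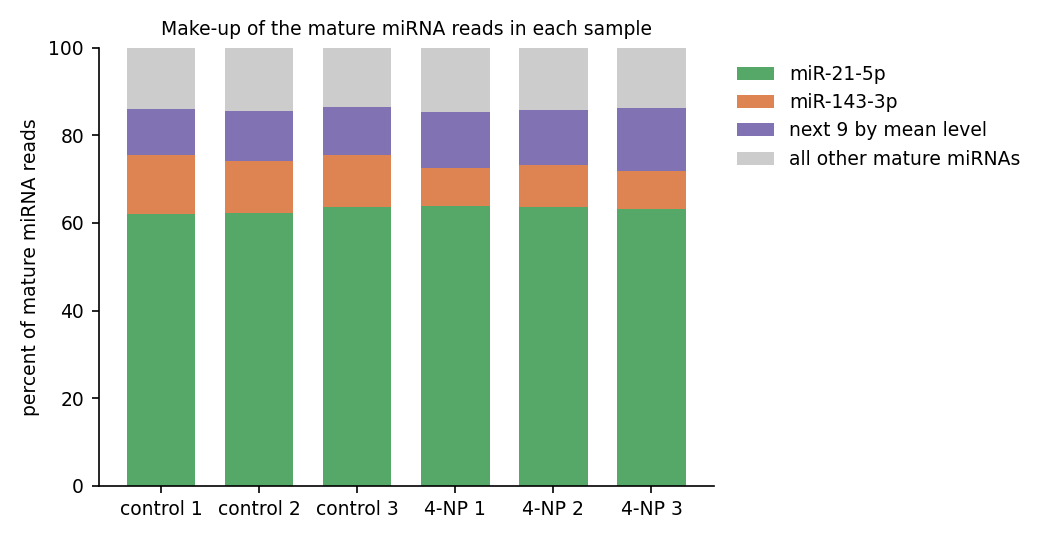
Percent of mature miRNA reads (y axis) taken by miR-21-5p, miR-143-3p, the next 9 miRNAs by mean level and all others, in each of the 6 samples. miR-21-5p takes 62.0 to 63.9% in every bar, while the share of miR-143-3p is 11.8 to 13.4% in the controls and 8.67 to 9.47% after 4-NP.

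Of the 10 miRNAs next in level to miR-21-5p, 3 were called, against 20.2% of all tested miRNAs. miR-143-3p, known from smooth muscle and other mesenchymal cells, fell. miR-22-3p rose by 0.44 on the log2 scale, with means of 17278 ± 914 and 23520 ± 2501 CPM (SD, n = 3 each, edgeR adjusted p = 0.0218). miR-34a-5p, whose gene is a target of p53, rose by 0.65, with means of 7178 ± 378 and 11256 ± 414 CPM (edgeR adjusted p = 0.00232). The other 7 (miR-24-3p, miR-27a-3p, miR-99a-5p, miR-199a-3p, miR-26a-5p, miR-411-5p and miR-127-3p) were not called. Apart from miR-143-3p, miR-21-5p had 15.0 to 93.2 times the reads of each of these miRNAs in a sample.

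The profile over the 6 samples was compared with those of the tested miRNAs with a mean of at least 100 CPM, by Pearson's r of log2 CPM, as a description. Nearest to miR-21-5p were miR-496-3p (0.83), miR-379-5p (0.82) and miR-3578 (0.82), among 138 candidates. All values of 1 sample share its TMM factor, and none of these 3 miRNAs was called. Nearest to miR-21-3p were miR-376a-3p (0.95), miR-135b-5p (0.88) and miR-126a-5p (0.88), among 139. Of these, miR-135b-5p (log2 fold change -0.81, adjusted p = 0.0199 in edgeR) and miR-126a-5p (-1.16, adjusted p = 0.00628) fell after 4-NP, and miR-376a-3p had -0.60 (adjusted p = 0.0809). Of all tested miRNAs 20.2% were called. Since r was taken over both groups and miR-21-3p was lower in every treated sample, miRNAs picked this way tend to be lower as well. Over 6 samples, the highest r among so many candidates can be large by chance. The arms themselves had an r of 0.05, near 0 over these 6 samples.

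Other miRNAs known to be induced by AP-1, STAT3 or NF-kB were compared as a list. Of 7, all were tested and 1 was called, against 20.2% of all tested miRNAs. That was miR-146a-5p, a feedback inhibitor of NF-kB signaling, which rose by 1.20 on the log2 scale, with means of 35.6 ± 9.16 and 81.6 ± 10.1 CPM (SD, n = 3 each, edgeR adjusted p = 0.0104). miR-31a-5p had a log2 fold change of 0.41 and was not called (adjusted p = 0.0547 in edgeR). Its groups did not overlap, as was the case for 43.4% of all tested miRNAs. The values of miR-146b-5p, miR-181b-5p, miR-221-3p and miR-222-3p were -0.03 to 0.20. The remaining member, miR-155-5p, had 1.06 with a standard error of 2.33, and its counts varied widely within both groups. With it, the list had a median of 0.20, against -0.02 for all 549.

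The label of the cells was checked against miRNAs of the sertoli lineage. miR-202-5p, a miRNA of sertoli and granulosa cells, had 17934 to 27988 reads in the controls and 15000 to 17519 after 4-NP, and its partner miR-202-3p had 0 to 123 reads. In sum the sertoli list was 852 to 1257 CPM (controls) and 731 to 759 CPM (4-NP), groups that did not overlap, and neither member was called (adjusted p = 0.0858 for miR-202-5p in edgeR). Among single miRNAs, 43.4% of those tested had groups that did not overlap. miRNAs known from other cells were also counted, and their calls are to be read against the 20.2% of all tested miRNAs that were called (41 higher and 70 lower of 549). The endothelial miR-126a arms summed to 6268 to 8007 CPM (controls) and 3085 to 3982 CPM (4-NP), and both were called lower. The 3 smooth muscle miRNAs (miR-143-3p, miR-145-5p and miR-145-3p) summed to 110847 to 143264 and 84851 to 94878 CPM, with 2 called lower. Most of this sum was miR-143-3p, with 108356 to 140732 CPM in the controls and 82746 to 92966 CPM after 4-NP. The 9 germ cell miRNAs summed to 551 to 686 and 179 to 209 CPM, and of 8 tested 3 were lower and 2 higher. The fall of this sum lay mostly in miR-741-3p, with 371 to 502 CPM in the controls and 42.6 to 65.4 CPM after 4-NP. The higher ones were miR-34b-5p and miR-34c-5p, each with a log2 fold change of 1.11 (edgeR adjusted p = 0.0104 and 0.0297). The 3 erythroid miRNAs summed to 10.5 to 43.0 CPM (controls) and 56.6 to 660 CPM (4-NP), with 1 of 2 tested called higher. The 3 myeloid miRNAs had 7.40 to 11.1 and 7.98 to 13.9 CPM, with none called. No listed miRNA was at 0 in all samples. The part of any of these cell types in the values of miR-21-3p, whose values were lower in the same samples as the sertoli, endothelial, smooth muscle and germ cell sums, was not tested, and in these bulk samples fewer cells of a type and less RNA per cell cannot be told apart.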

How the data were processed

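RNA of 18 to 30 nt was cut from a gel, given adapters that carry molecular identifiers and sequenced. The authors deposited 1 table of 2363 rows that holds raw, not normalized, read counts of each small RNA. HISAT2 and DESeq2 are named in the submitters' processing notes; the annotation, the build and the rule for assigning reads to a class are not given in the sources used here. The deposited columns named for molecular identifiers hold 1 for both arms in every sample and 1620 to 2255 for the mir-21 precursor row. For the arms they cannot be molecule counts, what they hold is not given in the sources used here, and they entered no test. Columns named NP were matched to the treated samples by group and number.

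The 4 rows for exons, introns, intergenic sequence and repeats, 3.52 to 5.91% of counted reads, were left out. Mature counts were analysed with edgeR 4.0.16 in R 4.3.3 (TMM, filterByExpr, 549 of 734 rows, quasi-likelihood test, no block). Arm ratios were log2((5p + 0.5)/(3p + 0.5)) and were tested with limma 3.58.1. For edgeR, each standard error was derived by dividing the size of the log2 fold change by the square root of F. Standard errors of the arm ratios came from the limma fit itself. Shares and ratios were compared by exact permutation tests. The edgeR and limma steps were checked on simulated counts. Sequences came from RefSeq (GRCr8), where 606 of 673 known mature names matched. The precursor row was tested with the effective library sizes of the mature miRNAs.

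Named were both arms, miRNAs with their seeds, the next 10 by level, the 3 of at least 100 CPM most alike in profile to each arm, 7 inducible miRNAs, cell type markers and the 3 hairpins nearest in arm ratio. miR-143 was named among hairpins after its values were seen. The members and lists were chosen with earlier results of these data known. Alternatives were other scalings and filters, DESeq2 1.42.0, limma on log2(CPM + 1), a replicate block and the omission of each sample. All alternatives for the precursor row, the fixed TMM references and the omission of miR-143-3p were added after the data were seen. No library was a second deposit of another, as replicates differed by more than sampling noise (chi-square per degree of freedom of 154 to 942), which does not show whether they were separate cultures.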

Additional observations from a re-analysis of the deposited data

How the results depend on the processing

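The log2 fold change of miR-21-5p took a positive sign with RLE factors (0.035), total count scaling (0.021), upper-quartile factors (0.068), miR-21-5p left out of the library size (0.061), all named small RNA reads as library size (0.026), DESeq2 (0.029), limma (0.0013) and no filter (0.037), and lay between -0.069 and 0.089 when 1 sample was left out. Its adjusted p was at least 0.268 in all of these. The log2 fold change of miR-21-3p stayed between -0.48 and -0.37 in 12 alternatives and between -0.54 and -0.20 without 1 sample, with adjusted p of 0.084 to 0.368. Total count scaling without miR-21-5p and miR-143-3p was not among these. There the log2 fold change was -0.12 for miR-21-5p (adjusted p = 0.091 in edgeR) and -0.55 for miR-21-3p (adjusted p = 0.075). With upper-quartile factors and both left out, miR-21-3p had -0.36. The arm ratio difference stayed between 0.29 and 0.59, with no adjusted p under 0.179. The shift of the median of the other miRNAs was -0.064 with TMM, -0.0016 with RLE and 0.00049 with upper-quartile factors, and with total count scaling it was 0.14 when miR-143-3p was left out too and -0.055 to -0.028 without 1 sample (-0.055 without control 3). With TMM and controls 1, 2 and 3 as fixed reference it was 0.010, 0.0098 and 0.0035, and with 4-NP samples 1, 2 and 3 it was 0.0075, 0.00052 and 0.017. The precursor row passed 0.05 with TMM factors of all named rows (-0.47) and with DESeq2 (-0.46), and in no fit without 1 sample (-0.38 to -0.17).

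With a replicate block, the log2 fold change was 0.0013 for miR-21-5p and -0.45 for miR-21-3p, and the number of higher mature miRNAs fell from 41 to 26. The block changed no call on either arm, the arm ratio or the precursor row. Samples with the same number did not deviate together (correlations of -0.30, -0.26 and -0.02), and 0 of 6 samples correlated best with its own number, so the numbers were not taken as pairs. With 3 samples in a group, an exact permutation p cannot fall below 0.1, and depth limits miR-21-3p less than the spread between samples does.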

Other observations

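In the list of inducible miRNAs, miR-155-5p was counted 2, 5954 and 5638 times in control samples 1, 2 and 3 and 10569, 1 and 12385 in 4-NP samples 1, 2 and 3. Its partner miR-155-3p had 86 to 141 reads in every sample, control sample 1 and 4-NP sample 2 included. The log2 fold change of miR-155-5p was 1.06 with a standard error of 2.33 (adjusted p = 0.782 in edgeR). miR-3578, one of the miRNAs nearest in profile to miR-21-5p, gave 26490, 369 and 7534 reads in control samples 1, 2 and 3 and 568, 12904 and 8270 in 4-NP samples 1, 2 and 3, an SD of 2.62 on the log2 scale over the 6 samples against 0.086 for miR-21-5p.

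The arm ratio of miR-26a, the most unequal of the tested hairpins, rested on 14, 23 and 21 reads of miR-26a-3p in the controls and 16, 3 and 3 after 4-NP, while miR-21-3p had 1196 reads or more in every sample.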
